A study of Mus musculus with 12 samples.

Results

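Nuclear receptors are transcription factors that are switched on or off by small lipid-soluble ligands such as steroids, vitamin D, thyroid hormone, retinoic acid, oxysterols and fatty acids, and the family also holds orphan members for which no natural ligand is established. Many bind DNA as a pair with a retinoid X receptor, and they act through coactivators and corepressors that open or close chromatin. In bone, vitamin D, oestrogen and glucocorticoids act through these receptors on osteoblasts and marrow stromal cells, and the receptors that belong to the circadian clock and to the immediate early response need no hormone to change their transcript level.

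The genes described here are 45 listed members of the mouse nuclear receptor family (without Pparg), found by matching gene symbols to the Ensembl identifiers of the deposited counts, out of 49585 genes. They were measured by bulk RNA-seq in 4 mesenchymal populations sorted from wild-type male C57BL/6 mice of 8-10 weeks at steady state, all depleted of CD45+ and Ter119+ blood cells and CD31+ endothelium, with 3 libraries of 2000 cells each. Mesenchymal stem cells (MSCs) sorted as Itga8+Alcam+Sca-1- are called Itga8+ cells here. Bone-lining cells (BLCs) sorted as Itga8-Alcam+Sca-1-, which the labels call osteoblasts, are called Itga8-Alcam+ cells. The other fractions were MSCs sorted as Alcam-Sca-1+ (Sca-1+ cells) and as CD51+CD140a+ (CD51+CD140a+ cells). The comparison among them shows which receptors each stromal fraction transcribes. The first 3 were freed from bone fragments with collagenase and CD51+CD140a+ cells from flushed marrow with another enzyme mix at a lower temperature for a shorter time, so in every comparison with CD51+CD140a+ cells the population and the isolation cannot be told apart. Nothing states that the 3 libraries of a population came from separate mice, so the p-values measure the spread between these libraries, which may be technical. In such bulk samples fewer cells that transcribe a gene and less RNA per cell cannot be told apart.

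Libraries held 17580677 to 31332475 counts on genes. Levels are given as counts scaled by library size and TMM factors (CPM), and as the length-scaled measure TPM where receptors are compared with each other. A gene was called different between populations at an edgeR adjusted p under 0.1 with a fold change above 2, log2 fold changes are those of the first-named population over the second, and 3 counts, which correspond to 0.0819 to 0.1798 CPM, were taken as the floor. Summed osteoblast markers (10 of 10 detected in every population) reached 44780 to 117100 CPM in Itga8-Alcam+ cells against 2931 to 9173 in Itga8+ cells, 18390 to 22080 in Sca-1+ cells and 10410 to 20960 in CD51+CD140a+ cells. Marker by marker the order of the last 3 differed from that of the sums. Of the 10, 5 were called higher and 1 lower in Itga8+ than in Sca-1+ cells, where 12.9% of all genes were higher and 8.89% lower. In Sca-1+ cells 6 were lower and 1 higher than in CD51+CD140a+ cells, where 9.3% of all genes were lower and 11.2% higher. Summed markers of LepR+ stroma (10 of 10 detected) reached 54770 to 71910 CPM in CD51+CD140a+ cells and 565 to 922 CPM elsewhere. Cartilage markers (8 of 8 detected) stood at 16440 to 126400 CPM in Itga8+ cells, 15890 to 80150 in Itga8-Alcam+ cells, 9246 to 9874 in Sca-1+ cells and 576 to 1461 in CD51+CD140a+ cells. Itga8+ replicate 2 and Itga8-Alcam+ replicate 3 stood apart from the other libraries, with genes over 5000 exon bases lower relative to genes under 2000 by 1.65 and 1.11 on the log2 scale, where the values of the other 10 libraries ran from -0.42 to 0.59. Receptor transcripts are long (median of 4828 exon bases over the receptors tested, against 3712 over all genes tested), and Itga8+ replicate 2 held the lowest value of its population for 20 of 33 receptors (60.6%, against 41.7% of all genes). Its summed myeloid and lymphoid markers (10 of 11 detected, Cd3e at the floor) were also the highest, at 11840 CPM against 2310 and 5688 CPM in the other Itga8+ libraries. These markers reached 4340 to 6502 CPM in Itga8-Alcam+ cells, 883.5 to 1729 in Sca-1+ cells and 992.7 to 1700 in CD51+CD140a+ cells. Of 10 tested, 6 were called higher in Itga8+ than in Sca-1+ and in CD51+CD140a+ cells (12.9% and 21.2% of all genes). In Itga8-Alcam+ cells 6 and 7 were higher in the same order (14.5% and 20.4% of all genes). None was lower in any of these. The part of blood cell RNA in the receptor levels was not tested.

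Of the 45 receptors, 33 reached 0.5 CPM in 1 or more libraries and were tested. Another 8 were at or under 3 counts in every library: Nr1i2, Hnf4g, Nr2e1, Nr2e3, Nr5a2 and Nr0b1 had no count at all, Nr5a1 reached 2 counts and Esrrg 3 counts. These include the xenobiotic receptor PXR (Nr1i2), the steroidogenic factors of gonad and adrenal (Nr5a1, Nr0b1) and the retinal and neural orphan receptors (Nr2e3, Nr2e1). The remaining 4 passed 3 counts somewhere but were too low to test, namely the progesterone receptor Pgr (highest 6 counts), the bile acid receptor Nr1h4 (7), Esrrb (9) and Nr0b2 (5). Among tested receptors, Rorb was at the floor in 3 populations, Esr2 in Itga8-Alcam+ cells and Sca-1+ cells, and Hnf4a in Itga8+ cells. Counted by population, 11 receptors were at the floor in Itga8+ cells, 13 in Itga8-Alcam+ cells, 12 in Sca-1+ cells and 12 in CD51+CD140a+ cells.

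Per length, the orphan receptor Nr4a1 was the most abundant receptor transcript in all 4 populations, with mean TPM of 384, 367, 1302 and 2061 in Itga8+, Itga8-Alcam+, Sca-1+ and CD51+CD140a+ cells. The clock repressor Nr1d1 came next in each, at mean TPM of 155, 206, 414 and 487. Nr4a2 took the third place in the 3 populations from bone fragments, and Nr1d2 took it in CD51+CD140a+ cells. The TPM of all 45 receptors summed to 1397, 344 and 1408 in the 3 Itga8+ libraries and to 1272, 1317 and 774 in Itga8-Alcam+ cells. The sums were higher in Sca-1+ cells, at 2196, 3190 and 2372, and in CD51+CD140a+ cells, at 3058, 3789 and 3152, with no overlap with the Alcam+ fractions. Much of each sum was Nr4a1 alone. It made up 36.5% of the mean sum in Itga8+ cells, 32.8% in Itga8-Alcam+ cells, 50.4% in Sca-1+ cells and 61.8% in CD51+CD140a+ cells. The lowest Itga8+ and Itga8-Alcam+ sums were those of the libraries with low values for long genes. The mean CPM was highest in CD51+CD140a+ cells for 15 of the 33 tested receptors, in Sca-1+ cells for 11, in Itga8-Alcam+ cells for 5 and in Itga8+ cells for 2.

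**Figure D1:**
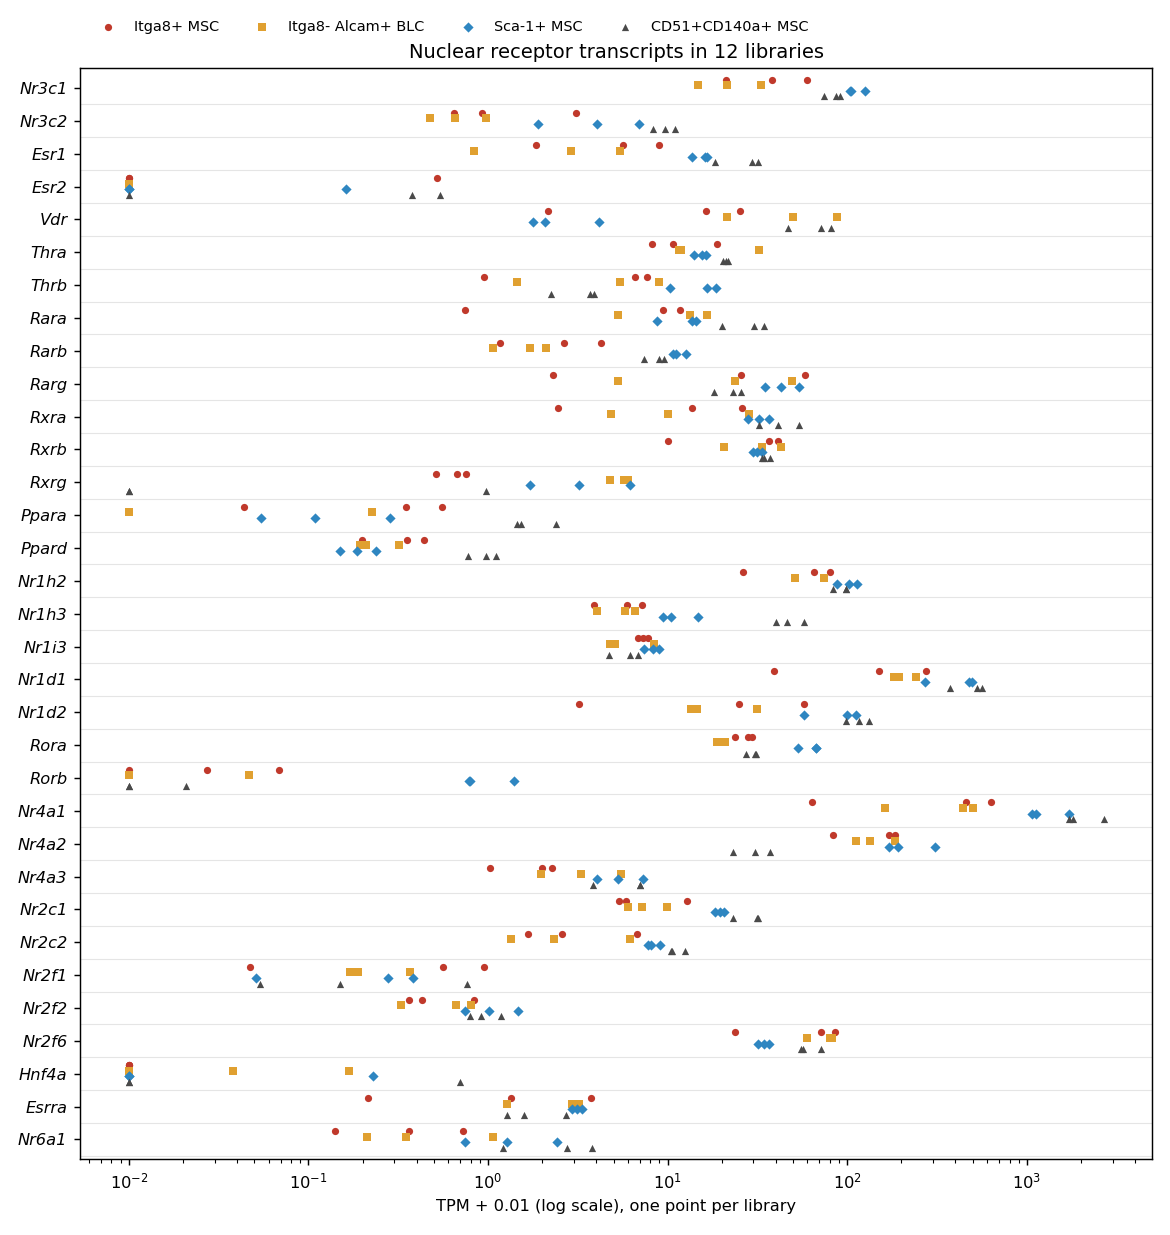
TPM of the 33 tested receptors, plotted on a log axis after adding 0.01, with 1 point per library coloured by population. Nr4a1 and Nr1d1 lie furthest to the right, Rorb stands above the floor in Sca-1+ cells, and several Itga8+ points lie far to the left of the other libraries of their population.

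The receptors differed between the Alcam+ fractions and the other populations, mostly in one direction. Between Itga8+ cells and Itga8-Alcam+ cells edgeR called no receptor (0 of 33, against 3.82% of all genes tested), with 2 receptors at an unadjusted p under 0.05. In simulated counts the fit recovered 36.4% of 4-fold and 60.7% of 8-fold changes in this comparison, so the lack of a call does not show equal levels. For 4 of 33 receptors every Itga8+ library lay below every Itga8-Alcam+ library, against 7.44% of all genes. DESeq2 and limma-trend each called 2, Rxrg and Vdr. Against Sca-1+ cells, Itga8+ cells had 1 receptor higher (background 12.9%) and 10 lower (background 8.89%). Against CD51+CD140a+ cells, Itga8+ cells had 1 higher (background 21.2%) and 15 lower (background 14.3%). Itga8-Alcam+ cells had 2 receptors higher (background 14.5%) and 9 lower (background 11.9%) than Sca-1+ cells, and 2 higher (background 20.4%) and 12 lower (background 14.9%) than CD51+CD140a+ cells. Sca-1+ cells had 5 receptors higher (background 11.2%) and 4 lower (background 9.3%) than CD51+CD140a+ cells. As shares, the 15 receptors lower in Itga8+ cells than in CD51+CD140a+ cells are 45.5% of those tested. Among the 6769 genes at least as long as the median receptor the shares called lower in Itga8+ cells were 12.9% against Sca-1+ cells and 19.2% against CD51+CD140a+ cells. For Itga8-Alcam+ cells they were 17.4% and 20% in the same order.

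The median log2 fold change over the 33 receptors was -1.03 for Itga8+ cells over Sca-1+ cells and -1.31 over CD51+CD140a+ cells, where all genes tested had medians of 0.16 and 0.18. For Itga8-Alcam+ cells the receptor medians were -0.61 and -0.73, against 0.12 and 0.091 for all genes. With the trend of level on gene length removed from each library, Itga8+ cells had 9 receptors lower than Sca-1+ cells, of which 6 were among the 10 and Nr1d2, Nr1h3 and Thrb were called here but not with the trend left in. Against CD51+CD140a+ cells they had 13 lower, 12 of them among the 15 and the other being Ppara. Itga8-Alcam+ cells had 7 lower than Sca-1+ cells, all 7 among the 9, and 11 lower than CD51+CD140a+ cells, of which 10 were among the 12 and the other was Rxra. The receptor medians of Itga8+ cells were then -0.88 and -0.79 in the same order, and those of Itga8-Alcam+ cells -0.52 and -0.81. In the test among all 4 populations together, 20 of the 33 receptors (60.6%) passed an adjusted p under 0.1, against 47.5% of all genes. In all, 23 of the 33 receptors (69.7%) were called in at least 1 of the 6 comparisons, which share libraries, against 54.2% of all genes. Of their 61 calls, 35 were kept in each of 22 refits with other tools, filters or scalings, without the length trend, or without any 1 library. The 35 included 3 of 11 calls between Itga8+ and Sca-1+ cells and 8 of 16 between Itga8+ and CD51+CD140a+ cells, and the settings that ended the other calls are given beside each receptor.

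**Figure D2:**
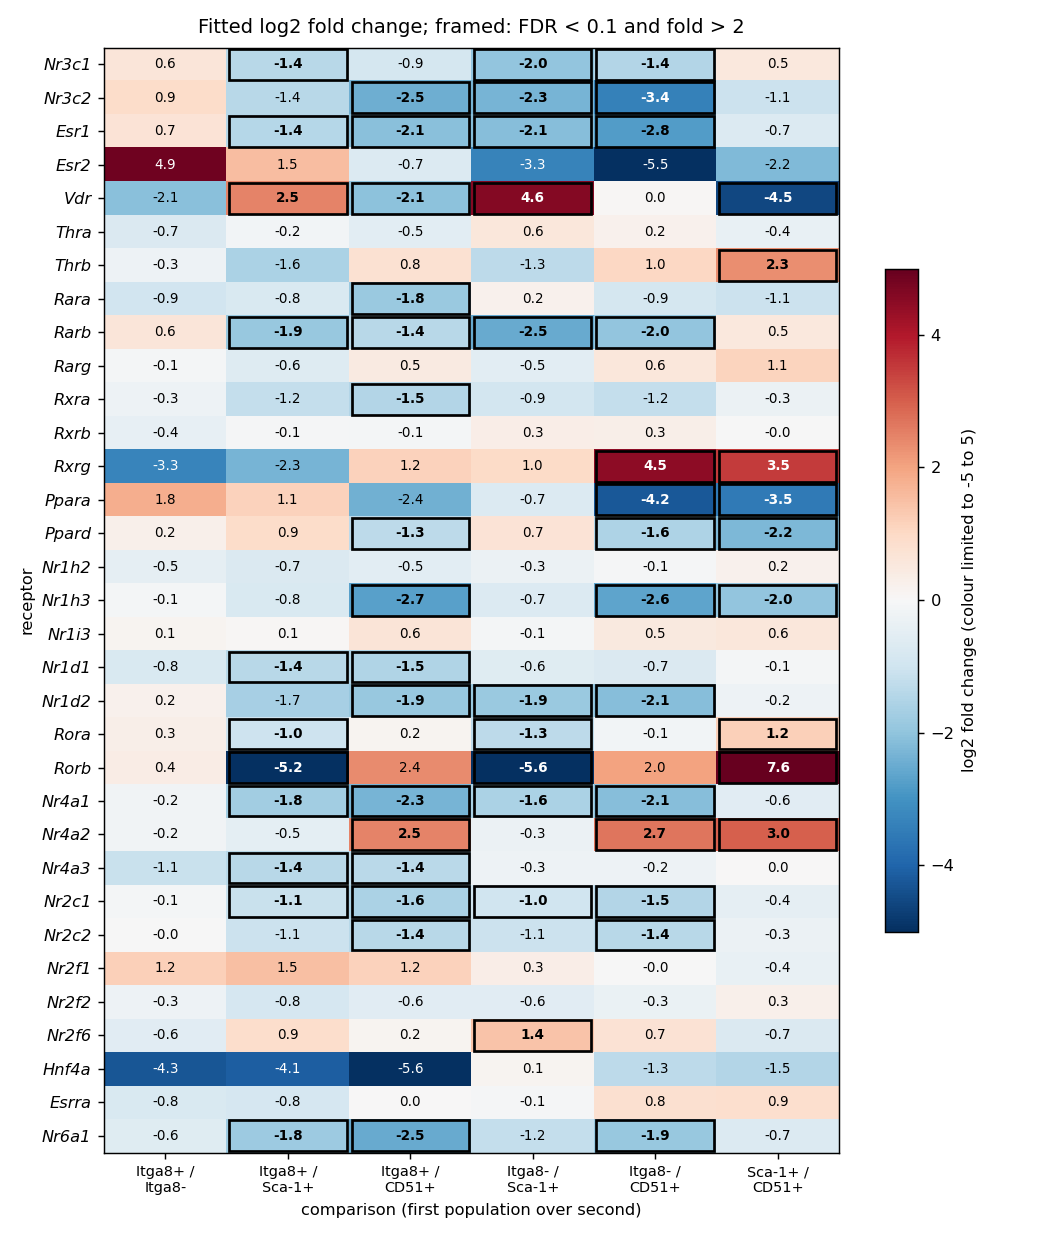
Fitted log2 fold change of the 33 tested receptors (rows) in the 6 comparisons (columns, first population over second, with Itga8- for Itga8-Alcam+ cells and CD51+ for CD51+CD140a+ cells), with calls framed. Columns 2 to 5 are mostly blue, with receptors lower in the Alcam+ fractions, and the first column holds no frame; values of receptors at the floor in a population, such as Rorb, Esr2 and Hnf4a, depend on the prior count.

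Among receptors for steroids, the glucocorticoid receptor Nr3c1, the corticosteroid sensor of most tissues, was the most abundant per length in every population. Its level was 76.0, 65.1 and 122.9 CPM in Itga8+ cells, 49.0, 77.1 and 49.6 in Itga8-Alcam+ cells, 209.7, 258 and 222 in Sca-1+ cells and 160.7, 148 and 172 in CD51+CD140a+ cells. Every library of the Alcam+ fractions lay below every library of the other populations. Nr3c1 was lower than in Sca-1+ cells both in Itga8+ cells (log2 fold change -1.39 ± 0.30 (SE), adjusted p = 0.0095) and in Itga8-Alcam+ cells (-1.97 ± 0.31, adjusted p = 0.000984). Against CD51+CD140a+ cells it was lower in Itga8-Alcam+ cells (-1.45 ± 0.30, adjusted p = 0.00365), while for Itga8+ cells the fold change stayed under 2 (-0.86 ± 0.30, adjusted p = 0.0464).

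The mineralocorticoid receptor Nr3c2, which binds aldosterone and also glucocorticoids, was much less abundant. It stood at 1.53, 1.66 and 5.31 CPM in Itga8+ cells, 1.25, 1.9 and 1.32 in Itga8-Alcam+ cells, 3.21, 12 and 7.21 in Sca-1+ cells and 14.4, 18.4 and 13.9 in CD51+CD140a+ cells. CD51+CD140a+ cells were above every other library, by 5.50-fold over Itga8+ cells (log2 fold change -2.46 ± 0.57 for Itga8+ cells, adjusted p = 0.0074) and by 10.4-fold over Itga8-Alcam+ cells (-3.38 ± 0.60, adjusted p = 0.00132). Itga8-Alcam+ cells were also lower than Sca-1+ cells (-2.32 ± 0.58, adjusted p = 0.0146). As a share of the TPM of both corticosteroid receptors, Nr3c2 made up 10.4% ± 2.2 (SD, n = 3) in CD51+CD140a+ cells and 2.94% to 3.57% on average elsewhere.

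The oestrogen receptor alpha gene Esr1, through which oestrogen preserves bone, ranked the populations by mean as Nr3c2 did, with CD51+CD140a+ cells highest. It measured 19.9, 10.2 and 32.6 CPM in Itga8+ cells, 11.8, 22.6 and 4.97 in Itga8-Alcam+ cells, 49.1, 60.9 and 60.6 in Sca-1+ cells and 92.6, 64.7 and 113 in CD51+CD140a+ cells, and the 2 sets of libraries did not overlap. Esr1 was lower than in CD51+CD140a+ cells in Itga8+ cells (-2.11 ± 0.53, adjusted p = 0.0111) and in Itga8-Alcam+ cells (-2.78 ± 0.54, adjusted p = 0.00254), and lower than in Sca-1+ cells in Itga8-Alcam+ cells (-2.11 ± 0.53, adjusted p = 0.0153). The difference of Itga8+ from Sca-1+ cells was called (-1.44 ± 0.52, adjusted p = 0.0796), but its fold fell under 2 with the length trend removed (-0.86). It also lost its call without any 1 of 7 libraries (Itga8+ replicates 1 and 2, Itga8-Alcam+ replicate 1, the 3 Sca-1+ libraries and CD51+CD140a+ replicate 1), at adjusted p from 0.101 to 0.178, and with the replicate number as a block (adjusted p = 0.143). Its paralogue Esr2 had at most 15 counts in a library and was called nowhere.

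Few of the genes that respond to glucocorticoids were called, and in both directions. Of 12, all tested, 2 were higher (background 12.9%) and none lower (background 8.89%) in Itga8+ than in Sca-1+ cells. Against CD51+CD140a+ cells, 1 was higher (background 21.2%) and 3 were lower (background 14.3%) in Itga8+ cells. Itga8-Alcam+ cells had 2 higher (background 14.5%) and 1 lower (background 11.9%) than Sca-1+ cells. They had 1 higher (background 20.4%) and 1 lower (background 14.9%) than CD51+CD140a+ cells. Errfi1, a feedback inhibitor of the epidermal growth factor receptor, was at 1573, 1181 and 1833 CPM in Itga8+ cells and lower, at 719, 961 and 564 CPM, in Sca-1+ cells (1.03 ± 0.30, adjusted p = 0.0403). Per1, a clock gene with a glucocorticoid response, was at 21.1, 14.4 and 16.4 CPM in CD51+CD140a+ cells against 7.67, 1.61 and 2.83 in Itga8+ cells (-2.1 ± 0.53 for Itga8+ over CD51+CD140a+ cells, adjusted p = 0.0115). Fkbp5, a cochaperone of the receptor that glucocorticoids induce, was higher in Sca-1+ cells (110.6, 31.6 and 86.4 CPM) than in CD51+CD140a+ cells (17.3, 18.4 and 22.7 CPM; 1.97 ± 0.73, adjusted p = 0.0918). Of 9 tested genes of steroid metabolism, 2 were higher in Itga8+ than in Sca-1+ cells (background 12.9%), Hsd11b1, which regenerates active glucocorticoid, and Hsd17b7. Hsd11b1 stood at 15.8, 65.8 and 7.97 CPM against 9.29, 3.25 and 9.04 CPM (2.05 ± 0.65, adjusted p = 0.0533), and its libraries overlapped.

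The vitamin D receptor Vdr, which mediates the actions of calcitriol on mineral handling, set the populations far apart. Vdr was at 23.9, 4.88 and 38.1 CPM in Itga8+ cells, 84.0, 149.7 and 52.9 in Itga8-Alcam+ cells, 6.14, 2.70 and 3.19 in Sca-1+ cells and 105, 104 and 68.4 in CD51+CD140a+ cells. Itga8-Alcam+ cells and CD51+CD140a+ cells formed the upper pair with overlapping libraries, and Sca-1+ cells were lowest. Vdr was 23.9-fold higher in Itga8-Alcam+ cells than in Sca-1+ cells (4.58 ± 0.71, adjusted p = 0.000971) and 23.1-fold higher in CD51+CD140a+ than in Sca-1+ cells (-4.53 ± 0.71 for Sca-1+ over CD51+CD140a+ cells, adjusted p = 0.000694). Itga8+ cells were lower than CD51+CD140a+ cells (-2.06 ± 0.63, adjusted p = 0.0293) and higher than Sca-1+ cells (2.47 ± 0.65, adjusted p = 0.024), the latter with overlapping libraries and an adjusted p of 0.101 without Sca-1+ replicate 2. Every Itga8+ library was below every Itga8-Alcam+ library, but the difference missed the threshold (-2.1 ± 0.63, adjusted p = 0.130), while the DESeq2, limma-trend and length-corrected fits called it. The osteoblast markers summed above were also higher in Itga8-Alcam+ cells than in Itga8+ cells, with 9 of 10 markers called in that direction (background 3.82% in either direction). Of the 10, 6 were called lower (background 9.3%) and 1 higher (background 11.2%) in Sca-1+ than in CD51+CD140a+ cells. In Sca-1+ cells 7 were lower (background 14.5%) and none higher (background 11.9%) than in Itga8-Alcam+ cells. Vdr had the same direction in both. Between Itga8-Alcam+ and CD51+CD140a+ cells, where Vdr was not called, 6 were called higher (background 20.4%) and 1 lower (background 14.9%) in Itga8-Alcam+ cells. The part of these markers in the Vdr levels was not tested.

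Genes of vitamin D metabolism and response showed no common direction, with 9 of 10 tested and at most 2 called in either direction in any comparison. Itga8-Alcam+ cells had 2 lower (background 14.9%) and 1 higher (background 20.4%) than CD51+CD140a+ cells. Sca-1+ cells had 2 lower (background 9.3%) and 1 higher (background 11.2%) than CD51+CD140a+ cells. Each other comparison had 1 higher and 1 lower. The backgrounds there ran from 8.89% to 21.2%, and 3.82% in either direction between the Alcam+ fractions. Tnfsf11, which encodes the osteoclast-inducing ligand RANKL and responds to vitamin D, was higher in CD51+CD140a+ cells, at 156, 107 and 156 CPM, than in the other populations, where it ran from 1.10 to 5.23 CPM (-6.27 ± 0.46 for Itga8+ over CD51+CD140a+ cells, adjusted p = 3.16e-06). Bglap, the osteocalcin gene, was higher in Itga8-Alcam+ cells (1753, 1175 and 6980 CPM) than in Itga8+ cells (4.99, 14.9 and 1.44 CPM; -8.85 ± 1.18 for Itga8+ over Itga8-Alcam+, adjusted p = 0.0018). Cyp27a1, a sterol 27-hydroxylase that can also act on vitamin D, was highest in Sca-1+ cells (28.4, 32.3 and 17.7 CPM), where Vdr was lowest, against 3.51, 1.66 and 3.52 CPM in Itga8+ cells (-3.17 ± 0.43 for Itga8+ over Sca-1+ cells, adjusted p = 0.000592).

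**Figure D3:**
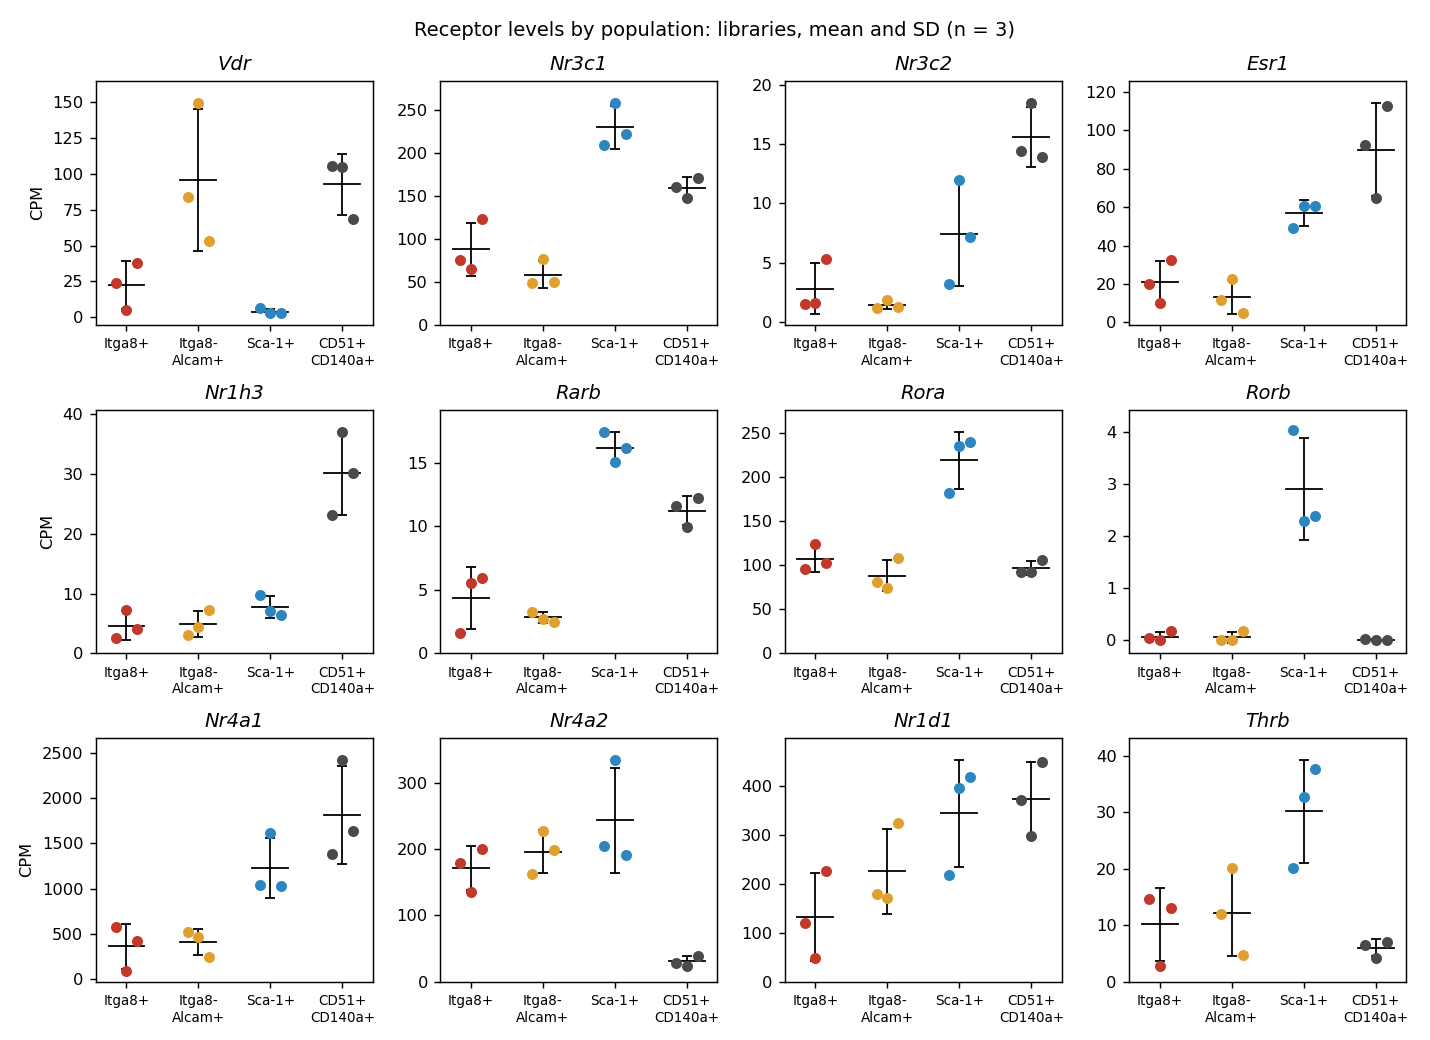
CPM of 12 receptors in each library (points), with the mean and SD of the 3 libraries of each population (bars), on linear axes. Vdr is low in Sca-1+ cells, Rorb stands above the floor only there among the 4 populations, and Nr4a2 is low in CD51+CD140a+ cells, where Nr4a1 is highest.

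Of the receptors for thyroid hormone, Thra was called in no comparison and Thrb in 1. Thra ran from 13.2 to 44.7 CPM over the 12 libraries. Thrb was at 14.6, 2.80 and 13.1 CPM in Itga8+ cells, 12.1, 20.1 and 4.67 in Itga8-Alcam+ cells, 20.1, 32.7 and 37.7 in Sca-1+ cells and 6.58, 4.27 and 7.08 in CD51+CD140a+ cells. Thrb was 5.04-fold higher in Sca-1+ than in CD51+CD140a+ cells (2.33 ± 0.63, adjusted p = 0.0223), and its share of the TPM of the pair was 49.0% ± 5.9 (SD, n = 3) in Sca-1+ cells against 13.4% ± 3.5 in CD51+CD140a+ cells. Of 9 tested genes of thyroid hormone handling and response, 2 were higher (background 11.2%) and 1 was lower (background 9.3%) in Sca-1+ than in CD51+CD140a+ cells. The thyroid-responsive corepressor Hr was at 72.2, 82.6 and 59.5 CPM in Sca-1+ cells and at most 0.831 CPM in CD51+CD140a+ cells (7.38 ± 1.17, adjusted p = 0.000827). The activating deiodinase Dio2 was at 19.4, 26.1 and 8.95 CPM against at most 1.58 CPM (4.46 ± 1.07, adjusted p = 0.012). Crym, a cytosolic thyroid hormone binding protein, went the other way, with 20.8, 19.0 and 26.2 CPM in CD51+CD140a+ cells against 0.254 to 0.608 CPM in Sca-1+ cells (-5.84 ± 0.96 for Sca-1+ over CD51+CD140a+ cells, adjusted p = 0.00107).

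Among the retinoic acid receptors, which pair with retinoid X receptors to read all-trans retinoic acid, the beta gene Rarb differed most. Rarb was at 1.58, 5.56 and 5.95 CPM in Itga8+ cells, 3.29, 2.73 and 2.46 in Itga8-Alcam+ cells, 17.5, 15.1 and 16.2 in Sca-1+ cells and 11.6, 9.97 and 12.2 in CD51+CD140a+ cells. Its values in both Alcam+ fractions were below all others. It was lower than in Sca-1+ cells in Itga8+ cells (-1.90 ± 0.43, adjusted p = 0.0123) and Itga8-Alcam+ cells (-2.52 ± 0.44, adjusted p = 0.00222), and lower than in CD51+CD140a+ cells in Itga8-Alcam+ cells (-1.99 ± 0.44, adjusted p = 0.00505). For Itga8+ against CD51+CD140a+ cells the call (-1.37 ± 0.43, adjusted p = 0.0313) was lost without Itga8+ replicate 1, when the fold fell under 2 (-0.97), and in a fit of these populations alone (adjusted p = 0.104). Of Rarb's exon bases 34.1% overlap those of the opposite-strand gene Top2b, and the use of strand in counting is not given in the sources used here, so reads of these genes may not be told apart.

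Rara, the receptor with the broadest tissue range, was at 13.3, 1.30 and 11 CPM in Itga8+ cells, 17.3, 21.8 and 10.1 in Itga8-Alcam+ cells, 15.8, 16.8 and 10.4 in Sca-1+ cells and 30.2, 22.5 and 38.9 in CD51+CD140a+ cells. It was lower in Itga8+ than in CD51+CD140a+ cells (-1.84 ± 0.63, adjusted p = 0.0462), a call lost without CD51+CD140a+ replicate 3 (adjusted p = 0.127) and in a fit of these populations alone (adjusted p = 0.117). Rarg was called nowhere and ran from 3.95 to 64.1 CPM, its extremes both being Itga8+ libraries. As shares of the TPM of the 3 genes, Rarg made up 64.6% ± 3.3 (SD, n = 3) and Rara 18.0% ± 2.0 in Sca-1+ cells, against 37.9% ± 2.8 and 47.3% ± 4.1 in CD51+CD140a+ cells. In the Alcam+ fractions these shares varied more between libraries, with Rarg from 40.6% to 81.8%.

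**Figure D4:**
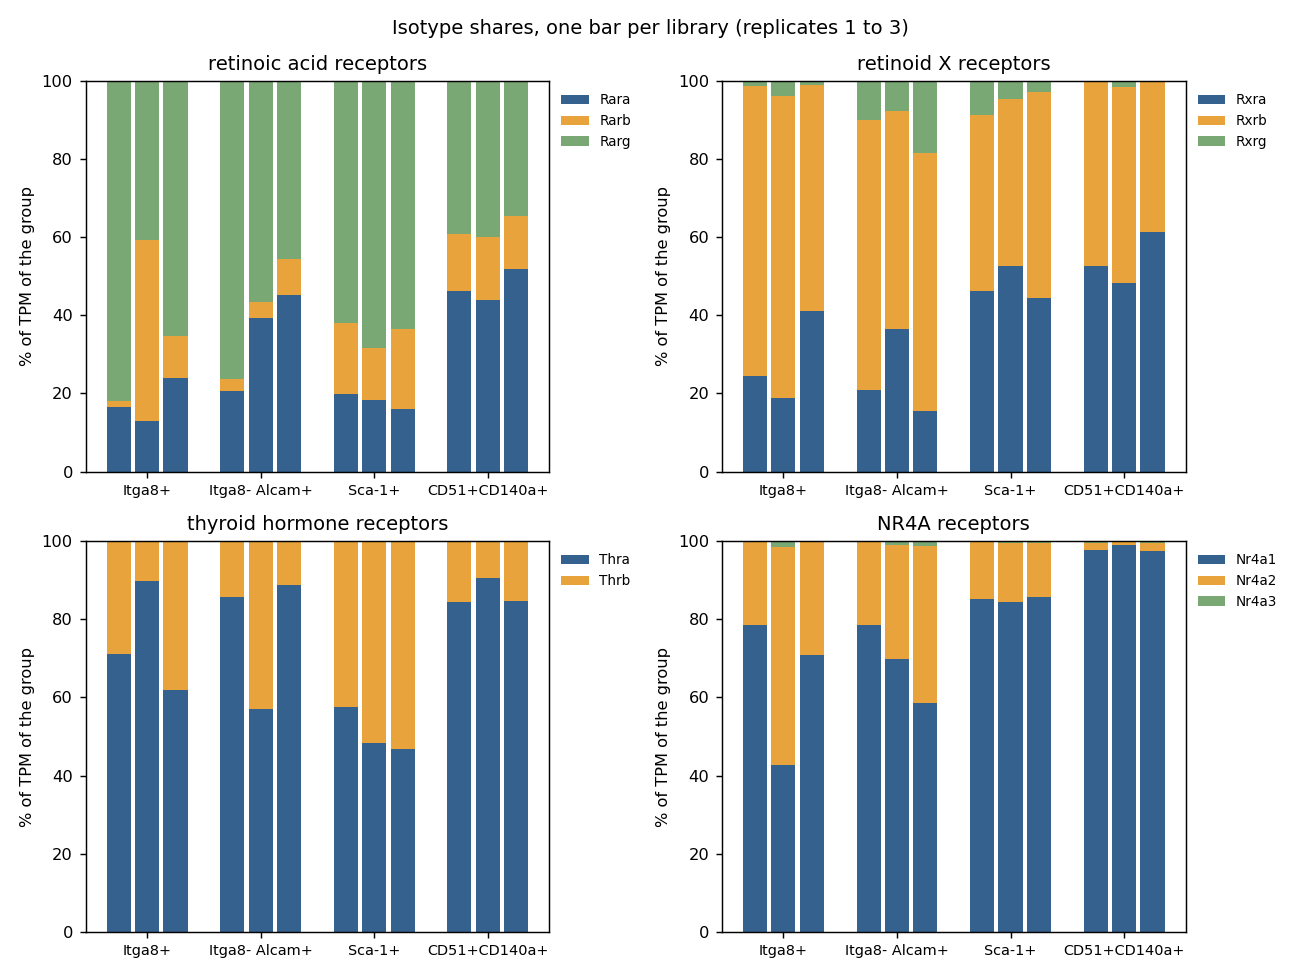
Share of each isotype in the summed TPM of its receptor group, with 1 stacked bar per library, for retinoic acid receptors, retinoid X receptors, thyroid hormone receptors and NR4A receptors. Nr4a1 fills 97.6% to 99.0% of the NR4A bars of CD51+CD140a+ cells, and Thrb takes a larger share in Sca-1+ than in CD51+CD140a+ cells.

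The retinoid X receptors, the shared partners of many family members, were present throughout as Rxra and Rxrb. Rxrb was called nowhere and ran from 16.1 to 51.9 CPM. Rxra was at 19.4, 5.40 and 37.8 CPM in Itga8+ cells, 16.5, 47.0 and 11.6 in Itga8-Alcam+ cells, 46.5, 53.4 and 42.3 in Sca-1+ cells and 51.9, 45.4 and 76.5 in CD51+CD140a+ cells. The call of Rxra lower in Itga8+ than in CD51+CD140a+ cells (-1.47 ± 0.63, adjusted p = 0.0967) lay at the threshold. It was lost without any 1 of 9 libraries (Itga8+ replicates 1 and 2, Itga8-Alcam+ replicate 1, the 3 Sca-1+ and the 3 CD51+CD140a+ libraries), at adjusted p from 0.116 to 0.235, in a fit of these populations alone (0.142) and with the replicate block (0.146).

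Rxrg, the isotype of muscle and nervous tissue, was low but uneven. It was at 0.445, 0.467 and 0.404 CPM in Itga8+ cells, 3.29, 4.17 and 5.75 in Itga8-Alcam+ cells, 3.71, 1.98 and 1.08 in Sca-1+ cells and 0, 0.573 and 0 in CD51+CD140a+ cells. Itga8-Alcam+ cells were above CD51+CD140a+ cells (4.48 ± 1.17, adjusted p = 0.013). Sca-1+ cells were above CD51+CD140a+ cells as well (3.51 ± 1.13, adjusted p = 0.0523), a call lost at adjusted p from 0.112 to 0.160 without Sca-1+ replicate 1 or CD51+CD140a+ replicate 1 or 3. Every Itga8-Alcam+ library was above every Itga8+ library, by 9.91-fold, with an adjusted p of 0.193 in edgeR (-3.31 ± 1.11) and a call in DESeq2 and limma-trend.

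Genes of retinoid metabolism and response moved in both directions. Of 14 tested, 9 were higher (background 21.2%) and 3 lower (background 14.3%) in Itga8+ than in CD51+CD140a+ cells. In Sca-1+ cells 7 were higher (background 11.2%) and 3 lower (background 9.3%) than in CD51+CD140a+ cells. Aldh1a2, which makes retinoic acid, was at 123, 96.1 and 174 CPM in CD51+CD140a+ cells against 3.26, 3.84 and 9.47 in Itga8+ cells (-4.57 ± 0.49 for Itga8+ over CD51+CD140a+ cells, adjusted p = 4e-05), 0.659 to 1.48 in Itga8-Alcam+ cells and 7.64 to 10.2 in Sca-1+ cells. It was 1 of 4 retinoid genes called between the Alcam+ fractions (background 3.82%), being higher in Itga8+ cells than in Itga8-Alcam+ cells (2.36 ± 0.46, adjusted p = 0.0179). Crabp2, which carries retinoic acid to its receptors, was at 39.0, 37.5 and 56.9 CPM in Sca-1+ cells and at most 0.612 CPM in CD51+CD140a+ cells (6.77 ± 1.00, adjusted p = 0.000471). Stra6, the cell-surface receptor for retinol binding protein, was at 29.9, 29.9 and 26.1 CPM in Sca-1+ cells, 7.07, 7.55 and 3.66 in Itga8-Alcam+ cells, 0.989, 0 and 0.462 in Itga8+ cells and at the floor in CD51+CD140a+ cells.

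Among the lipid sensors, the oxysterol receptor LXR alpha (Nr1h3) was higher in CD51+CD140a+ cells than in each of the other populations. Nr1h3 was at 2.52, 7.27 and 3.98 CPM in Itga8+ cells, 3.04, 4.40 and 7.25 in Itga8-Alcam+ cells, 9.79, 7.02 and 6.46 in Sca-1+ cells and 23.2, 37.1 and 30.2 in CD51+CD140a+ cells, where every library was above all others. The difference was 6.56-fold from Itga8+ cells (-2.71 ± 0.46, adjusted p = 0.00109), 6.16-fold from Itga8-Alcam+ cells (-2.62 ± 0.46, adjusted p = 0.00126) and 3.89-fold from Sca-1+ cells (-1.96 ± 0.45, adjusted p = 0.00905). Its broadly transcribed paralogue Nr1h2 (LXR beta) was called nowhere and ran from 35.3 to 100.6 CPM.

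Sterol-responsive genes, among them known LXR targets, did not share one direction. Of 12, all tested, 3 were higher (background 21.2%) and 4 lower (background 14.3%) in Itga8+ than in CD51+CD140a+ cells. In Sca-1+ cells 1 was higher (background 11.2%) and 3 lower (background 9.3%) than in CD51+CD140a+ cells. Apoe, the lipoprotein component, was at 3161, 4475 and 4556 CPM in CD51+CD140a+ cells, 996, 1957 and 712 in Itga8+ cells and 135.8, 142.7 and 93.0 in Sca-1+ cells (-5.04 ± 0.48 for Sca-1+ over CD51+CD140a+ cells, adjusted p = 2.11e-05). The cholesterol exporter Abca1 was at 0.742, 2.34 and 8.09 CPM in Itga8+ cells, below every library of the other populations, where it ran from 9.86 to 100.7 CPM (-3.53 ± 0.85 for Itga8+ over Itga8-Alcam+, adjusted p = 0.0512). Pltp, a phospholipid transfer protein, was also lower in Itga8+ cells (36.2, 32.6 and 27.8 CPM) than in Itga8-Alcam+ cells (103.6, 150.8 and 266 CPM; -2.43 ± 0.36, adjusted p = 0.00312). Nr1h3 overlapped between those fractions, as its values above show.

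Both fatty acid receptors on the list were low, and both were highest in CD51+CD140a+ cells. Ppara, which drives fatty acid oxidation, was at 0.544, 0.0519 and 0.347 CPM in Itga8+ cells, 0.249, 0 and 0 in Itga8-Alcam+ cells, 0.277, 0.102 and 0.0469 in Sca-1+ cells and 2.1, 1.43 and 1.51 in CD51+CD140a+ cells. It was lower than in CD51+CD140a+ cells in Itga8-Alcam+ cells (-4.23 ± 1.24, adjusted p = 0.0228) and Sca-1+ cells (-3.54 ± 1.18, adjusted p = 0.0607), the latter call being lost at adjusted p from 0.114 to 0.185 without Sca-1+ replicate 2 or 3 or CD51+CD140a+ replicate 1 or 3. Ppard was at 0.841, 0.571 and 0.693 CPM in Itga8+ cells, 0.697, 0.417 and 0.659 in Itga8-Alcam+ cells, 0.277, 0.356 and 0.469 in Sca-1+ cells and 1.88, 1.86 and 1.48 in CD51+CD140a+ cells. Its difference of Sca-1+ from CD51+CD140a+ cells (-2.23 ± 0.54, adjusted p = 0.013) was kept in every refit. The calls for Itga8+ cells (-1.31 ± 0.52, adjusted p = 0.0778) and Itga8-Alcam+ cells (-1.56 ± 0.53, adjusted p = 0.0427) over CD51+CD140a+ cells were lost with the length trend removed (adjusted p = 0.251 and 0.163), and in thinned counts and without the filter on low genes (adjusted p from 0.114 to 0.182). The first was also lost at adjusted p from 0.101 to 0.173 without any 1 of the 3 Itga8+ libraries, Sca-1+ replicate 2 or any 1 of the 3 CD51+CD140a+ libraries, with the replicate block (0.135) and in a fit of these populations alone (0.140). The second was lost without Itga8-Alcam+ replicate 2 or CD51+CD140a+ replicate 1 (0.108 and 0.111).

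Fatty acid responsive genes were lower outside CD51+CD140a+ cells where they were called. Of 10 tested, 4 were lower and none higher in Itga8+ cells, in Itga8-Alcam+ cells and in Sca-1+ cells alike, each against CD51+CD140a+ cells. Of all genes, 14.3%, 14.9% and 9.3% were lower in the same order. Angptl4, an inhibitor of lipoprotein lipase, was at 1020, 1158 and 1373 CPM in CD51+CD140a+ cells and 57.1, 81.0 and 77.4 in Itga8+ cells (-4.04 ± 0.34 for Itga8+ over CD51+CD140a+ cells, adjusted p = 7.45e-06). Pdk4, which spares glucose by blocking pyruvate dehydrogenase, differed between the Alcam+ fractions too, at 4.06, 2.13 and 5.14 CPM in Itga8+ cells and 31.7, 73.4 and 52.6 in Itga8-Alcam+ cells (-3.80 ± 0.45, adjusted p = 0.000984). The xenobiotic receptor Nr1i3 (CAR) was called nowhere and ran from 5.41 to 13.7 CPM, but 74.9% of its exon bases overlap the opposite-strand gene Tomm40l, so its level is uncertain.

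The repressors of the circadian clock were abundant, and where they were called they were lower in an Alcam+ fraction. Nr1d1 and Nr1d2 encode REV-ERB alpha and beta, repressors that bind the same DNA elements as the ROR activators. The time of day of collection is not given in the sources used here, and a shift in time between sorts cannot be told apart from a difference between populations. Nr1d1 was at 120.7, 48.3 and 226.9 CPM in Itga8+ cells, 179, 171 and 325 in Itga8-Alcam+ cells, 218, 395 and 417 in Sca-1+ cells and 371, 297 and 448 in CD51+CD140a+ cells. It was lower in Itga8+ than in CD51+CD140a+ cells (-1.50 ± 0.49, adjusted p = 0.0395), a call lost without CD51+CD140a+ replicate 3 (adjusted p = 0.113). It was also lower in Itga8+ than in Sca-1+ cells (-1.38 ± 0.49, adjusted p = 0.0785), with overlapping libraries. That call was lost at adjusted p from 0.102 to 0.196 without Itga8+ replicate 1 or 2, Sca-1+ replicate 2 or 3 or CD51+CD140a+ replicate 1, and in a fit of these populations alone (0.158).

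Nr1d2 was at 35.0, 7.01 and 82.8 CPM in Itga8+ cells, 23.6, 51.6 and 31.9 in Itga8-Alcam+ cells, 82.0, 144 and 166 in Sca-1+ cells and 164, 162 and 137 in CD51+CD140a+ cells. Against CD51+CD140a+ cells it was lower in Itga8+ cells (-1.89 ± 0.65, adjusted p = 0.0463) and in Itga8-Alcam+ cells (-2.11 ± 0.66, adjusted p = 0.0296), and in the latter it was also lower than in Sca-1+ cells (-1.87 ± 0.65, adjusted p = 0.06). The first call was lost without Itga8+ replicate 1 (adjusted p = 0.115) and in a fit of these populations alone (0.112), the second without Itga8-Alcam+ replicate 1 (0.105), and the third without Itga8-Alcam+ replicate 1 or 3 or Sca-1+ replicate 2 or 3 (0.134 to 0.171).

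Rora, the widely transcribed ROR activator, was highest in Sca-1+ cells, and the other populations overlapped one another. Its level was 95.6, 124.6 and 102 CPM in Itga8+ cells, 81.6, 74.6 and 108.7 in Itga8-Alcam+ cells, 182, 236 and 240.5 in Sca-1+ cells and 92.0, 92.4 and 105.6 in CD51+CD140a+ cells. The difference of Sca-1+ from CD51+CD140a+ cells (1.18 ± 0.25, adjusted p = 0.00567) was kept in every refit. Those of Itga8+ cells (-1.03 ± 0.25, adjusted p = 0.0169) and Itga8-Alcam+ cells (-1.31 ± 0.25, adjusted p = 0.00369) from Sca-1+ cells were lost with the length trend removed, at -0.24 and -0.52, and the Rora exons span 13071 bases. The first also fell under a 2-fold change with library totals alone (-0.99) and without Itga8+ replicate 1 or Sca-1+ replicate 2 or 3 (-0.97 to -0.95).

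Rorb, known from retina, brain and bone, was above the floor in Sca-1+ cells and at the floor in the 3 other populations. It had 73, 45 and 51 counts in the Sca-1+ libraries, or 4.04, 2.29 and 2.39 CPM, and at most 3 counts in any of the other 9 libraries. Set against the floor of 3 counts per library, Rorb was at least 18.3-fold higher in Sca-1+ cells than in Itga8+ cells, at least 18.6-fold higher than in Itga8-Alcam+ cells and, over CD51+CD140a+ cells, at least 32.9-fold higher (adjusted p = 0.0143, 0.00921 and 0.00222). All 3 calls were kept in every refit. In TPM it stayed low, at a mean of 0.979 against 62.3 for Rora in the same libraries.

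Other clock genes were called in both directions against CD51+CD140a+ cells. Of 15, all tested, none was called between the Alcam+ fractions (background 3.82%). None was higher in either fraction than in Sca-1+ cells, while 3 were lower in Itga8+ cells (background 8.89%) and 6 in Itga8-Alcam+ cells (background 11.9%). Against CD51+CD140a+ cells, 4 were higher (background 21.2%) and 5 lower (background 14.3%) in Itga8+ cells. In Itga8-Alcam+ cells 4 were higher (background 20.4%) and 7 lower (background 14.9%). Sca-1+ cells had 3 higher (background 11.2%) and 1 lower (background 9.3%) than CD51+CD140a+ cells, where neither REV-ERB gene was called. Arntl, which encodes the activator BMAL1 and is repressed by REV-ERB, was at 74.4, 61.1 and 60.2 CPM in Itga8+ cells and at 9.23, 9.40 and 13.5 CPM in CD51+CD140a+ cells (2.61 ± 0.39, adjusted p = 0.000449). The output gene Dbp was at 7.42, 3.75 and 20.9 CPM in Itga8-Alcam+ cells against 33.7, 112.9 and 173 in Sca-1+ cells (-3.32 ± 0.75, adjusted p = 0.00928). Per3, a period gene, was at 1.43, 1.19 and 4.33 CPM in Itga8+ cells against 21.3, 13.5 and 20.3 in CD51+CD140a+ cells (-2.99 ± 0.65, adjusted p = 0.00499). Tef, related to Dbp, was at 27.7, 31.6 and 11 CPM in Itga8-Alcam+ cells against 168, 137 and 160 in CD51+CD140a+ cells (-2.73 ± 0.77, adjusted p = 0.0199).

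The NR4A receptors are orphan receptors whose genes belong to the immediate early class, induced within minutes by growth factors, stress and cyclic AMP. The 250 bases before the RefSeq start of each of the 3 genes are shown as a description, and their part in the levels was not tested. They were read from RefSeq for GRCm38.p6, 5′ to 3′ on the gene's strand, at chr15:101266596-101266845 (+) for Nr4a1, chr2:57124004-57124253 (-) for Nr4a2 and chr4:48045055-48045304 (+) for Nr4a3. Capitals mark the half-site of the cyclic AMP response element, TGACG or CGTCA on the other strand.
Nr4a1: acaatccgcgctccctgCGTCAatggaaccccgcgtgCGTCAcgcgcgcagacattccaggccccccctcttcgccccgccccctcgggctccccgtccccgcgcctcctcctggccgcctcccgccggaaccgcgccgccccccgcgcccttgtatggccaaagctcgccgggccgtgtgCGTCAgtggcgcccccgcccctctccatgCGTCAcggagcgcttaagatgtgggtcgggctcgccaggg
Nr4a2: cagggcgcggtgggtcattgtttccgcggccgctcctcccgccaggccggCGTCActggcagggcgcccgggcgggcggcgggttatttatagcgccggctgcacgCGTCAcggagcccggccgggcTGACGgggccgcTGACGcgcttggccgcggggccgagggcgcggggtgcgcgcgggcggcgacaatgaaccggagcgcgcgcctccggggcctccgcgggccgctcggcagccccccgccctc
Nr4a3: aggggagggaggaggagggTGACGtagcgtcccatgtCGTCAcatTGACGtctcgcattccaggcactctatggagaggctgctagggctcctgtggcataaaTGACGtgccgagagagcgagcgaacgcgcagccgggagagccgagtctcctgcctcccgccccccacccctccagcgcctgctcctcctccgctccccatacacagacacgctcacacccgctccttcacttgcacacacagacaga
Each window held 4 half-sites. At least 1 was found in 17.8% of the 32851 windows of all genes and at least 4 in 0.137%. Of the 41 receptors with a window, Nr4a1, Nr4a2 and Nr4a3 were the 3 with at least 4. A match of these letters is a description and not a bound site.

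Nr4a1 and Nr4a2 ran in opposite directions in CD51+CD140a+ cells. Nr4a1 was at 576, 90.2 and 427 CPM in Itga8+ cells, 526, 468 and 251 in Itga8-Alcam+ cells, 1041, 1611 and 1033 in Sca-1+ cells and 1384, 2423 and 1633 in CD51+CD140a+ cells. It was lower than in CD51+CD140a+ cells in Itga8+ cells (-2.32 ± 0.56, adjusted p = 0.00938) and Itga8-Alcam+ cells (-2.13 ± 0.56, adjusted p = 0.0134). It was also lower than in Sca-1+ cells in Itga8+ cells (-1.75 ± 0.55, adjusted p = 0.0515) and Itga8-Alcam+ cells (-1.56 ± 0.55, adjusted p = 0.0616). The first of these was lost without Sca-1+ replicate 2 (adjusted p = 0.158), with the replicate block (0.103) and in a fit of these populations alone (0.118). The second was lost at adjusted p from 0.101 to 0.192 without Itga8-Alcam+ replicate 3 or any 1 of the 3 Sca-1+ libraries.

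Nr4a2, known from dopaminergic neurons and induced in bone cells by parathyroid hormone, had the smallest adjusted p-values of the family. It was at 179, 135.9 and 199.7 CPM in Itga8+ cells, 163, 227 and 199 in Itga8-Alcam+ cells, 205, 334 and 191 in Sca-1+ cells and 28.6, 24.2 and 39.3 in CD51+CD140a+ cells. The 3 populations from bone fragments overlapped one another and every library of theirs was above every CD51+CD140a+ library. Nr4a2 was 5.60-fold higher in Itga8+ cells (2.48 ± 0.32, adjusted p = 0.000152), 6.40-fold higher in Itga8-Alcam+ cells (2.68 ± 0.32, adjusted p = 9.27e-05) and 7.94-fold higher in Sca-1+ cells (2.99 ± 0.33, adjusted p = 5.36e-05) than in CD51+CD140a+ cells. All 3 calls were kept in every refit. As a share of NR4A TPM, Nr4a2 made up 35.2% ± 18.2 (SD, n = 3) in Itga8+ cells, 30.2% ± 9.6 in Itga8-Alcam+ cells, 14.5% ± 0.71 in Sca-1+ cells and 1.54% ± 0.61 in CD51+CD140a+ cells.

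Nr4a3 was far lower, at 1.58, 5.45 and 3.18 CPM in Itga8+ cells, 3.54, 10.0 and 8.69 in Itga8-Alcam+ cells, 6.36, 11.7 and 8.67 in Sca-1+ cells and 9.61, 5.90 and 10.8 in CD51+CD140a+ cells. Its calls in Itga8+ cells, against Sca-1+ cells (-1.39 ± 0.52, adjusted p = 0.0892) and against CD51+CD140a+ cells (-1.37 ± 0.52, adjusted p = 0.0655), were both lost with the length trend removed (adjusted p = 0.219 and 0.193) and in a fit of the populations compared alone (0.125 and 0.106). The first was lost without the filter on low genes (0.105) and, at adjusted p from 0.109 to 0.246, without Itga8+ replicate 1 or 3, any 1 of the 3 Sca-1+ libraries or CD51+CD140a+ replicate 1 or 3. The second was lost without Itga8+ replicate 1 or CD51+CD140a+ replicate 1 or 3 (0.140 to 0.172).

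Other immediate early genes, a class that responds to cell handling, moved in both directions against CD51+CD140a+ cells. Of 19, all tested, 2 were higher (background 21.2%) and 10 lower (background 14.3%) in Itga8+ than in CD51+CD140a+ cells. In Itga8-Alcam+ cells 5 were higher (background 20.4%) and 6 lower (background 14.9%) than in CD51+CD140a+ cells. In Sca-1+ cells 3 were higher (background 11.2%) and 8 lower (background 9.3%) than in CD51+CD140a+ cells. Between Itga8+ and Sca-1+ cells 1 was higher (background 12.9%) and none lower (background 8.89%) in Itga8+ cells. Fosb was at 583, 386 and 661 CPM in CD51+CD140a+ cells against 120, 149 and 93.2 in Sca-1+ cells (-2.17 ± 0.44 for Sca-1+ over CD51+CD140a+ cells, adjusted p = 0.00399). Jun was at 2370, 2471 and 4022 CPM against 749, 892 and 518 in the same populations (-2.04 ± 0.34, adjusted p = 0.00127). Zfp36, whose protein shortens the life of cytokine mRNAs, was at 1749, 1908 and 2284 CPM against 374, 477 and 378 (-2.27 ± 0.30, adjusted p = 0.000203). Ier3 went the other way, being lower in CD51+CD140a+ cells (134, 88.2 and 146 CPM) than in Itga8-Alcam+ cells (683, 749 and 3158 CPM; 3.64 ± 0.60, adjusted p = 0.000819). The part of the isolation in the NR4A levels was not tested.

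Of the orphan receptors of the NR2 group, Nr2c1 and Nr2c2, the testicular receptors that often repress, were lower in the Alcam+ fractions. Nr2c1 was at 6.43, 10.9 and 15.8 CPM in Itga8+ cells, 9.86, 13.9 and 12.1 in Itga8-Alcam+ cells, 24.8, 22.6 and 24.8 in Sca-1+ cells and 33.6, 27.6 and 37.3 in CD51+CD140a+ cells. It was lower than in CD51+CD140a+ cells in Itga8+ cells (-1.57 ± 0.34, adjusted p = 0.00467) and Itga8-Alcam+ cells (-1.46 ± 0.34, adjusted p = 0.00674). Its differences from Sca-1+ cells lay near the 2-fold threshold, at -1.13 ± 0.33 (adjusted p = 0.0408) and -1.01 ± 0.33 (adjusted p = 0.0496). The first was lost without Itga8+ replicate 1 or Sca-1+ replicate 1 or 3 (log2 fold change -1.11 to -0.85) and in a fit of these populations alone (adjusted p = 0.112). The second was lost without Itga8-Alcam+ replicate 1 or 3 or any 1 of the 3 Sca-1+ libraries (-1.05 to -0.94) and with the length trend removed (-0.97).

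Nr2c2 was at 9.94, 10.0 and 27.0 CPM in Itga8+ cells, 10.4, 28.0 and 8.81 in Itga8-Alcam+ cells, 30.5, 36.2 and 33.3 in Sca-1+ cells and 42.9, 40.2 and 40.8 in CD51+CD140a+ cells. Its calls against CD51+CD140a+ cells, in Itga8+ cells (-1.40 ± 0.48, adjusted p = 0.0472) and Itga8-Alcam+ cells (-1.39 ± 0.48, adjusted p = 0.0476), fell under a 2-fold change with the length trend removed (-0.79 and -0.81). The first was also lost without Itga8+ replicate 1 or 2 or CD51+CD140a+ replicate 1 (adjusted p from 0.102 to 0.135) and the second without Itga8-Alcam+ replicate 1 or 3 or CD51+CD140a+ replicate 1 (0.101 to 0.154). Of its exon bases 30.7% overlap the opposite-strand gene Mrps25.

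Nr2f6, a COUP-type repressor, went the other way and was higher in Itga8-Alcam+ cells. It was at 55.2, 28.5 and 68.4 CPM in Itga8+ cells, 73.8, 72.2 and 78.6 in Itga8-Alcam+ cells, 27.2, 29.4 and 26.1 in Sca-1+ cells and 38.7, 42.5 and 55.5 in CD51+CD140a+ cells. It was 2.72-fold higher in Itga8-Alcam+ cells than in Sca-1+ cells (1.44 ± 0.32, adjusted p = 0.00808), a call kept in every refit, and 54.4% of its exon bases overlap the opposite-strand gene Ocel1. Its relatives Nr2f1 and Nr2f2 were called nowhere, with ranges of 0.0495 to 1.92 CPM and 0.791 to 3.36 CPM. Hnf4a, a liver and gut receptor, reached 28 counts in 1 CD51+CD140a+ library and at most 5 counts in any other, and was called nowhere.

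The germ cell nuclear factor Nr6a1 was low in all populations, at 0.989, 0.571 and 2.08 CPM in Itga8+ cells, 1.10, 3.47 and 0.959 in Itga8-Alcam+ cells, 2.1, 7.02 and 3.75 in Sca-1+ cells and 6.83, 10.6 and 3.38 in CD51+CD140a+ cells. It was lower in Itga8+ than in CD51+CD140a+ cells (-2.51 ± 0.71, adjusted p = 0.0206), kept in every refit. The call for Itga8-Alcam+ cells over CD51+CD140a+ cells (-1.90 ± 0.69, adjusted p = 0.0566) came with overlapping libraries and was lost at adjusted p from 0.104 to 0.177 without Itga8-Alcam+ replicate 1 or 3 or CD51+CD140a+ replicate 1 or 2. The call for Itga8+ over Sca-1+ cells (-1.82 ± 0.70, adjusted p = 0.0977) was lost without any 1 of 8 libraries (Itga8+ replicates 1 and 2, Itga8-Alcam+ replicate 1, Sca-1+ replicates 2 and 3 and the 3 CD51+CD140a+ libraries), at adjusted p from 0.102 to 0.309. It was also lost in 5 further refits, at 0.105 without the filter on low genes, 0.106 in thinned counts, 0.180 with the replicate block, 0.120 with the length trend removed and 0.127 in a fit of these populations alone. Esrra, an orphan receptor of mitochondrial genes, was called nowhere and ran from 0.363 to 4.25 CPM.

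The coactivators and corepressors that receptors act through were lower in the Alcam+ fractions where they were called. Of 22 coregulators, all tested, none was higher and 10 were lower than in CD51+CD140a+ cells in Itga8+ cells, and the same counts were found for Itga8-Alcam+ cells (14.3% and 14.9% of all genes were lower). Against Sca-1+ cells each Alcam+ fraction had 4 lower and none higher (8.89% and 11.9% of all genes were lower). Among genes at least as long as the median receptor, 19.2% and 20% were lower than in CD51+CD140a+ cells in the same order. Against Sca-1+ cells these shares were 12.9% and 17.4%. The part of gene length in the coregulator values was not tested. None was called between the Alcam+ fractions or between Sca-1+ and CD51+CD140a+ cells. The median log2 fold change over the coregulators was -1.10 for Itga8+ over CD51+CD140a+ cells. Ep300, an acetyltransferase coactivator, was at 8.90, 2.91 and 20.0 CPM in Itga8+ cells, 7.42, 20.1 and 7.25 in Itga8-Alcam+ cells, 35.3, 46.9 and 30.7 in Sca-1+ cells and 64.1, 53.4 and 47.7 in CD51+CD140a+ cells (-2.38 ± 0.61 for Itga8+ over CD51+CD140a+ cells, adjusted p = 0.0121). The coactivator Ncoa6 was at 10.2, 5.76 and 15.0 CPM in Itga8+ cells against 42.0, 50.2 and 48.1 in CD51+CD140a+ cells (-2.18 ± 0.49, adjusted p = 0.00586). The steroid receptor coactivators Ncoa1 (-2.07 ± 0.75, adjusted p = 0.0563) and Ncoa2 (-2.14 ± 0.76, adjusted p = 0.0528) were lower in the same comparison. In Itga8+ replicate 2, which has low values for long genes, Ncoa1 was at 4.52 CPM against 23.7 and 55.5 CPM in the other Itga8+ libraries. Ep300 (2.91 CPM) and Ncoa6 (5.76 CPM) also had their lowest Itga8+ values in that library.

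Chaperones that hold steroid receptors ready for ligand were called higher at a share near that of all genes. Of 10, all tested, 3 were higher and none lower than in CD51+CD140a+ cells both in Itga8+ cells and in Itga8-Alcam+ cells, where 21.2% and 20.4% of all genes were higher. Bag1, a cochaperone, was at 231, 433 and 171 CPM in Itga8+ cells and 64.5, 71.8 and 70.9 in CD51+CD140a+ cells (2.01 ± 0.38, adjusted p = 0.00225). The heat shock protein gene Hsp90ab1 was at 1059, 1455 and 1161 CPM against 583, 489 and 656 (1.09 ± 0.26, adjusted p = 0.00818). Its stress-inducible relative Hsp90aa1 was at 83.2, 430.3 and 120 CPM in Itga8+ cells (1.75 ± 0.59 over CD51+CD140a+ cells, adjusted p = 0.0445), with the highest value in Itga8+ replicate 2.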

How the data were processed

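Data are bulk RNA-seq libraries of 4 sorted mouse stromal populations, 3 each. The authors made cDNA with a SMART-Seq kit and Nextera XT libraries and deposited raw counts of reads per Ensembl gene, mapped to mm10. The submitters' processing notes list Trimmomatic 0.38, HISAT2 2.1.0 and featureCounts 1.6.3, whereas the paper names TopHat and Bowtie2; the annotation release and the use of strand are not given in the sources used here. Groups came from sample titles. R 4.3.3 with edgeR 4.0.16 (quasi-likelihood test, TMM, all 12 libraries in 1 fit) was run on the 18648 genes that reached 0.5 CPM in any library, with Benjamini-Hochberg adjustment over them. TPM used exon lengths of GENCODE M21. DESeq2 1.42.0, limma 3.58.1 and other settings were alternatives. At most 4 genes per pathway list are named, those with the largest fold change among calls in any of the 6 comparisons in which libraries did not overlap and the higher population reached 10 CPM; their values may be given for another comparison. The receptors and lists were chosen with earlier results of these data known. The fits were tested on simulated data, with an equal length trend put into all 3 CD51+CD140a+ libraries. In these data the trend instead differed between libraries of the same population, so the simulation is unlike them in this. Left in, the simulated trend gave 302 false calls between Itga8+ and CD51+CD140a+ cells, against 13 with it removed. Recovery of changed genes was 50.5% with it left in and 37.5% with it removed.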

Additional observations from a re-analysis of the deposited data

How the results depend on the processing

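Of the 61 receptor calls recomputed under each alternative, 1264 values kept their direction and their side of the threshold, 139 kept the direction and lost the call, and none reversed. The number of receptors called between Itga8+ cells and Itga8-Alcam+ cells was 0 in edgeR, 2 in DESeq2 and in limma-trend, and 1 without the filter on low genes, with the length trend removed or in a fit of these populations alone. Left out singly, libraries gave 0 to 1, with 1 without Itga8+ replicate 3 or CD51+CD140a+ replicate 2. The 11 called between Itga8+ and Sca-1+ cells became 6 at an adjusted p under 0.05 and 7 in a fit of these populations alone, and ran from 4 to 15 with 1 library left out (6 without Itga8+ replicate 1, 4 and 5 without Sca-1+ replicates 2 and 3, 7 without CD51+CD140a+ replicate 1). The 16 called between Itga8+ and CD51+CD140a+ cells ran from 10, without Itga8+ replicate 1, to 17. The other counts stayed within 1.5 times, at 8 to 15, 11 to 16, 7 to 10 and, in the test among all 4 populations, 17 to 22 with 1 library left out. Removal of the length trend was chosen after seeing the data. Same-numbered libraries deviated together with correlations from -0.582 to 0.204, and differently numbered ones with correlations from -0.306 to 0.617. Deviations within 3 libraries that also differ in the length trend cannot show whether the numbers pair the samples. With the replicate number as a block, 5 of 61 calls were lost and 8 receptors were called between Itga8+ and Sca-1+ cells. Over all genes the median log2 value moved from 0.084 to 0.34 between Itga8+ cells and Itga8-Alcam+ cells, and from 0.091 to -0.24 between Itga8-Alcam+ cells and CD51+CD140a+ cells, with library totals in place of TMM. Depth limits receptors near 3 counts, for which absence cannot be stated.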
